A study of Mus musculus with 6 samples.

Results

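Islet cells dispersed from the pancreas of male C57Bl/6N mice and kept for 72 h in serum-containing medium with no exosomes carried insulin, glucagon, chromogranin and amylin transcripts among the brightest signals of their arrays. These untreated cells are the control group of a series in which other islet cells received exosomes from T lymphocytes of NOD mice. Total RNA was labelled with 1 dye and hybridised to 1 array per sample. The series holds 6 arrays, and the 3 control arrays, from 3 experiments with different islet preparations, are described here with no comparison between groups and no test. The islet cells were not sorted, so every cell type left after dispersion and culture contributed RNA, and how many mice each preparation pooled is not given in the sources used here.

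A probe was included when its spots were well above background on all 3 control arrays. This held for 29946 of 39429 probes (75.9%), which represent 16751 of 20659 genes under a symbol. The remaining probes passed on 2 arrays (1061), on 1 array (1585) or on 0 arrays (6837). A level is the log2 of the processed signal minus the 75th percentile of its array, so that 0 is the 75th percentile and a difference of 1 is 2-fold. Included probes ranged from −6.26 to 8.70 with a median of −1.61. Just outside the rule, probes that passed on 2 arrays had a median level of −6.01. Each gene is given by its brightest included probe, and values are listed for replicates 1, 2 and 3 in that order, followed by mean ± SD (n = 3). Ranks run from 1 to 29946 over included probes. They order hybridisation signal, which also depends on the probe, and are not an order of transcript numbers.

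Between 78.1% and 81.6% of the 43020 transcript spots per array were above background, and 0 spots were saturated. At most 0.435% were marked as uneven or as outliers, with 4, 2 and 1 marked uneven. The 75th percentile of signal lay between 812 and 883. The number of arrays limits the precision of every SD given here. Of 4 Y-linked genes examined, Eif2s3y, Ddx3y and Uty were above background on all 3 arrays and Kdm5d on 1. Eif2s3y had 1.82, 1.73 and 1.65. Xist, transcribed from the inactive X chromosome of females, had −5.53, −5.37 and −5.07, close to the lower edge of the included range. These genes lay on the side that the male label gives.

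Islets are small clusters of endocrine cells within the exocrine pancreas. Beta cells sense glucose and release insulin with amylin, alpha cells release glucagon, delta cells release somatostatin, and PP cells release pancreatic polypeptide. The hormones are made as precursors, cut by prohormone convertases and stored in dense-core granules. Transcription factors such as Pdx1, Mafa, Nkx6-1 and Neurod1 act at the hormone promoters. Homeodomain factors bind TAAT cores, Neurod1 with its E-protein partners binds E-boxes, and Creb1 binds the palindrome TGACGTCA.

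The promoters of 4 hormone genes from 3 endocrine cell types are shown because these hormones mark the beta, alpha and delta cells described here. Ins2 is named only. Each line gives the 250 bases before the annotated start, 5′ to 3′ on the gene's strand, from RefSeq on GRCm38.p6. Capitals mark 3 motifs searched on both strands, and overlapping matches run together. The first is TAAT, read as ATTA on the other strand. The second is the E-box CATCTG, read as CAGATG on the other strand. The last is the palindrome named above. The windows are chr19:52264047-52264296 (plus strand) for Ins1, chr6:142298175-142298424 (plus strand) for Iapp, chr2:62483654-62483903 (minus strand) for Gcg and chr16:23890845-23891094 (minus strand) for Sst.
Ins1: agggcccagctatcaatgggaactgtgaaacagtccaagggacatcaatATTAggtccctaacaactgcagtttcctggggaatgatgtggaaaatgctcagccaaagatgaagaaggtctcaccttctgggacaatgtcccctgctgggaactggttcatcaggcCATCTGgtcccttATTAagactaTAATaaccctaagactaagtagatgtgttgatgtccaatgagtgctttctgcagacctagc
Iapp: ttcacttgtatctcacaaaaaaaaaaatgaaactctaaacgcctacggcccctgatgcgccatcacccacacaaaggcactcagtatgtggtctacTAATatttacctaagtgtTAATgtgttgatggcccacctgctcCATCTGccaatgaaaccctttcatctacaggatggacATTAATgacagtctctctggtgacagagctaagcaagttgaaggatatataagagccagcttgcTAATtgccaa
Gcg: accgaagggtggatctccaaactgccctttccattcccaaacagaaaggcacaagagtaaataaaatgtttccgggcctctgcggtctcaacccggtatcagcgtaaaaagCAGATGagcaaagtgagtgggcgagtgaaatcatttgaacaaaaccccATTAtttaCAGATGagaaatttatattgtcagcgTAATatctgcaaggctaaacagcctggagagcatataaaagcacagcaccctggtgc
Sst: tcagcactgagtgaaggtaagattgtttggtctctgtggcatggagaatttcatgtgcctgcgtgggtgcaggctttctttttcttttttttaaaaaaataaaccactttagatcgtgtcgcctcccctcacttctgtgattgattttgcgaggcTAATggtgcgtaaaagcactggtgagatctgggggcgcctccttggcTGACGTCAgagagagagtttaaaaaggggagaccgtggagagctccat

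The Ins1 window held 3 TAAT cores and 1 CATCTG, and the Iapp window held 5 and 1. The Gcg window held 2 of each. The Sst window held 1 TAAT, 0 CATCTG and 1 TGACGTCA. Among 32851 promoter windows of the same length, 54.9% held a TAAT, 14.4% a CATCTG and 1.55% a TGACGTCA. A match describes the letters and is not a measured site.

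All 13 hormone genes listed were above background on all 3 arrays, with a median level of 5.10 against −0.86 over all 16751 genes. Ins2, a mouse insulin gene, had 8.73, 8.65 and 8.72 (8.70 ± 0.05) and ranked 1. Gcg, which encodes preproglucagon, had 8.66, 8.65 and 8.72 (8.68 ± 0.04) and ranked 3. Ins1, the other insulin gene, had 8.43, 8.39 and 8.50 and ranked 4. Their probes may share target sequence between both insulin genes, which was not tested. The SDs of Ins2, Gcg and Ins1 were 0.05, 0.04 and 0.06. Iapp, which encodes amylin, had 8.30, 8.18 and 8.33 and ranked 6. The levels of these genes belong to different probes at the bright end of the signal range, so their order is not an order of hormone output.

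Sst (somatostatin) had 6.54, 6.92 and 6.91 (6.79 ± 0.22) and ranked 128, and Ppy (pancreatic polypeptide) had 6.50, 6.96 and 6.77 and ranked 133. Pyy (peptide YY) had 4.85, 5.38 and 5.07. All of these were lowest in replicate 1. Ucn3, a peptide of mature mouse beta cells, had 2.89, 3.17 and 2.32 (SD 0.43), lowest in replicate 3. Ghrl (ghrelin) had 0.86, 0.76 and 1.05. The remaining peptide genes were dim. Cartpt had −1.99, −1.48 and −1.90, Cck had −2.33, −2.58 and −2.04, and Gast (gastrin) had −3.41, −3.32 and −3.37. Npy (neuropeptide Y) had −3.59, −2.18 and −4.07, the largest SD of the hormone genes at 0.98, with replicate 2 above the others.

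**Figure D1:**
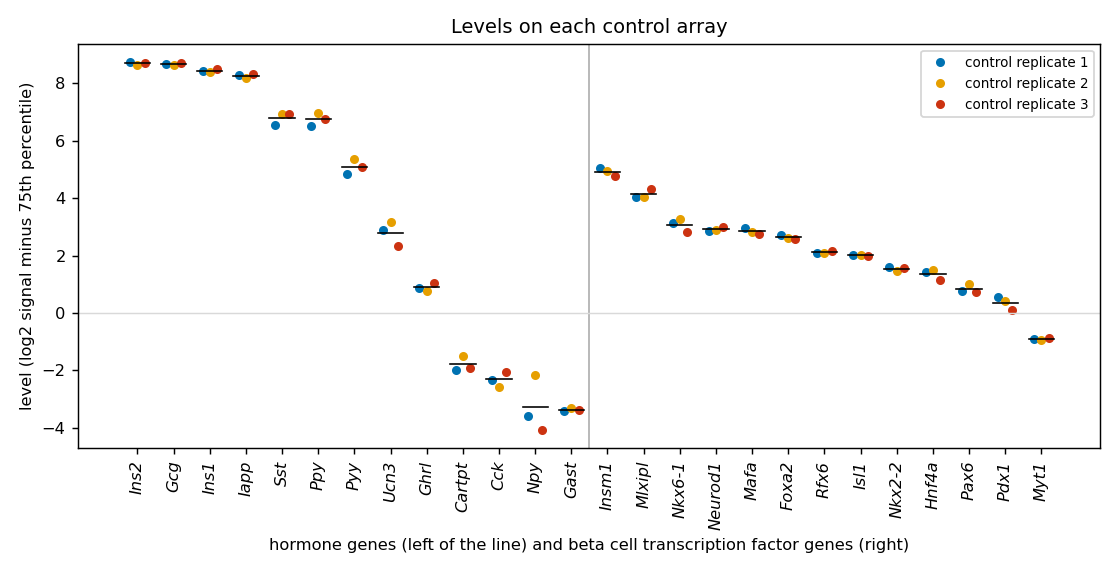
Level (log2 signal relative to the array's 75th percentile) of 13 islet hormone genes and 13 beta cell transcription factors in control islet cells; points are the 3 arrays and bars their mean. Ins2, Gcg, Ins1 and Iapp lie above 8 with nearly coincident points, while Npy and Ucn3 show the widest separation among the hormones.

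Genes of the secretory granule were bright as a group. All 19 were above background on every array, beside 16751 of 20659 genes with a symbol on the array. The median level was 4.05, and 9 ranked within the first 1000 of 29946 included probes. Chga (chromogranin A, a core protein of dense-core granules) had 8.78, 8.68 and 8.59 and ranked 2. Chgb (chromogranin B) had 8.00, 8.00 and 8.09. The convertase Pcsk2, which cuts proinsulin and proglucagon, had 7.94, 7.82 and 7.68, and Scg2 (secretogranin II) had 7.89, 7.71 and 7.82. Cpe, the carboxypeptidase that trims the cut peptides, had 7.30, 7.09 and 7.25. Pcsk1, the other prohormone convertase, had 5.41, 5.16 and 5.19. The least even member was Vgf, a granule peptide precursor, with 3.96, 3.07 and 2.69 (SD 0.65). Scg3 (secretogranin III) had 5.66, 5.69 and 5.09, below the others in replicate 3.

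The 14 beta cell transcription factors were all above background and varied little. Their median level was 2.05 and their median SD was 0.09. An SD of at least 0.5 was found in 0 of 14, beside 4.24% of all genes. The brightest of 4 equal groups of all genes had a median SD of 0.096, so such evenness was not particular to this list. Insm1, a zinc-finger factor of endocrine cells, had 5.04, 4.93 and 4.77 and ranked 725. Mlxipl (ChREBP, a glucose-responsive factor) had 4.04, 4.04 and 4.31. Nkx6-1 had 3.13, 3.27 and 2.82, Neurod1 had 2.86, 2.89 and 2.99, and Mafa, an activator of the insulin genes, had 2.97, 2.83 and 2.74. These are levels of single probes. Foxa2 had 2.71, 2.60 and 2.59, Rfx6 had 2.08, 2.09 and 2.14, and Isl1 had 2.01, 2.01 and 1.99. Pdx1, a factor of pancreas development and mature beta cells, had 0.55, 0.41 and 0.09 and ranked 8738. Other factors were Nkx2-2 (1.61, 1.46, 1.55), Hnf4a (1.43, 1.49, 1.15), Pax6 (0.75, 0.99, 0.72) and Myt1 (−0.91, −0.95, −0.89). Second probes lay lower for Mlxipl (1.70), Neurod1 (0.72), Foxa2 (1.64) and Pax6 (−3.41), and close for Nkx2-2 (1.49).

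Genes of glucose sensing and stimulus-secretion coupling were less even. All 14 were included, the median level was 2.22, and the median SD was 0.32 against 0.13 over all genes. Replicate 3 was the lowest in 11 of 14, where it was the lowest in 31.6% of all genes. The list's median difference between replicate 3 and the mean of the other preparations was −0.47, beside 0.014 over all genes. Slc2a2, the glucose transporter of beta cells, had 3.11, 2.85 and 1.41 (SD 0.91). Slc30a8 (the zinc transporter of insulin granules) had 4.68, 4.42 and 4.04, G6pc2 (islet glucose-6-phosphatase) 4.97, 4.55 and 4.15, and Ero1b (a disulphide oxidase) 5.01, 4.87 and 4.06. Each of these was highest in replicate 1 and lowest in replicate 3. Abcc8, the sulphonylurea receptor of the ATP-sensitive potassium channel, had 6.18, 6.20 and 6.20 and did not follow that pattern. Kcnj11, the pore of the same channel as Abcc8, was dimmer, with −2.22, −2.13 and −2.47.

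Of the alpha cell markers, which include Gcg, 8 of 9 were above background on all arrays and Pou3f4 on 0 arrays. Ttr (transthyretin) had 4.23, 4.28 and 3.98, and Gc (vitamin D binding protein) had 1.53, 1.24 and 1.98. All 5 delta cell markers were included, Sst among them. Rbp4 had 3.76, 4.12 and 3.69, the delta cell factor Hhex had 0.07, 0.40 and 0.30, and the ghrelin receptor Ghsr had −3.26, −2.67 and −3.17. Of these 5 genes, 4 were highest in replicate 2, beside 30.3% of all genes, and 4, not all the same, were lowest in replicate 1, beside 32.7% of all genes. In these bulk samples fewer cells of a type and less RNA per cell cannot be told apart.

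Markers of non-endocrine cells were also above background, beside 16751 of 20659 genes with a symbol on the array. That share applies to each count of included markers here and below. A count near it does not show that a cell type was present. Acinar cells, which make digestive enzymes, had 21 of 24 markers on the array above background, with a median level of −3.47. Their summed signal was 11.4, 10.5 and 9.87 times the 75th percentile. The mean level of these markers was −2.95, −2.72 and −2.94, which gave a different order of the replicates. The brightest was the factor Bhlha15 at 2.68, 2.51 and 2.42, which is not limited to acinar cells. Cela2a was above background on 0 arrays, the acinar factor Ptf1a on 1 and Pnliprp1 on 2. The secreted protein Reg1 had −5.73, −3.34 and −4.30 (SD 1.21), and the trypsinogen Prss2 had −6.03, −4.27 and −5.63 (SD 0.93). Both were highest in replicate 2.

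Duct cell markers were included for 12 of 14 genes, with a median level of −1.25. The keratins Krt18 (4.08, 4.13, 4.05) and Krt7 (1.31, 1.56, 1.50) were even across preparations. The duct factor Sox9 had −4.83, −4.10 and −4.64. Spp1 (osteopontin), also made by macrophages, had −1.62, −1.89 and 0.86 (SD 1.52). Endothelial markers were included for 12 of 14 genes, with a median level of −1.29, and Tie1 was above background on 0 arrays. Plvap, a protein of fenestrated endothelium, had 2.06, 2.45 and 1.99, the growth factor receptor Kdr had 0.50, 0.42 and 0.63, and the junction cadherin Cdh5 had −0.91, −1.79 and −1.49. On a second probe Plvap had 0.61, 0.09 and 0.21 and Kdr had 0.07, −0.77 and −1.14, both highest in replicate 1. Replicate 1 was the highest in 9 of 12 endothelial markers (30.9% of all genes) and replicate 2 the lowest in 11 of 12 (35.6% of all genes).

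Fibroblast, stellate cell and pericyte markers were the brightest of the non-endocrine lists. All 18 were included, and their median level was 0.90. Col1a1, a chain of type I collagen, had 5.22, 4.83 and 5.39, and the matrix protein Sparc had 4.48, 4.26 and 4.97. The contractile genes Tagln and Acta2 had 3.48, 3.47 and 3.84, and 3.28, 3.49 and 3.79. The matrix protein Postn had 0.76, 0.25 and 1.54 (SD 0.65). All 18 were highest in replicate 3, where 38.9% of all genes were, and 15 were lowest in replicate 2. The median difference of replicate 3 from the mean of the others was 0.66, beside 0.014 over all genes. Of the 18 markers, 0 were at least 2-fold above both, beside 0.681% of all genes. The summed signal was 108, 92.2 and 139 times the 75th percentile.

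Macrophage and dendritic cell markers were included for 17 of 20 genes on the array, with a median level of −0.08. H2-Ab1 and Cd74 of class II antigen presentation had 4.22, 5.03 and 4.35, and 2.05, 2.96 and 2.66. Itgam had 4.18, 4.22 and 4.10 on its brightest probe and −3.74 on its dimmest. The complement component C1qa had 2.25, 2.37 and 1.75. Lyz2 and Spi1 were above background on 2 arrays and Mrc1 on 1. The summed signal was 57.6, 79.6 and 65.0 times the 75th percentile, and 13 of 17 markers were lowest in replicate 1, as were 32.7% of all genes.

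Of 11 T lymphocyte markers, 8 were included with a median level of −2.36. Cd3d and Cd3g, defining chains of the T cell receptor complex, were above background on 0 arrays, while Cd3e had 3.84, 3.33 and 3.40. Cd4 had 1.98, 1.74 and 1.71 on its brightest probe and −3.68 on another. The probes therefore disagreed within the complex and within the gene. Of 7 B lymphocyte markers 5 were included, and Ms4a1 was above background on 0 arrays. Cd22 was the brightest at 1.30, 1.39 and 1.34. Mast cell markers were included for 3 of 7 genes, with the proteases Cpa3 and Cma1 on 0 arrays. Schwann cell and neuron markers were included for 10 of 12 genes, of which Mbp (2.68, 2.73, 2.62) and the catecholamine enzyme Th (1.82, 1.20, 1.15) were the brightest. The other probes of Mbp lay at −3.31 and −5.59. Of 7 erythroid genes 2 were included, and the brighter, the globin gene Hba-a2, had −0.10, −0.27 and −0.38.

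**Figure D2:**
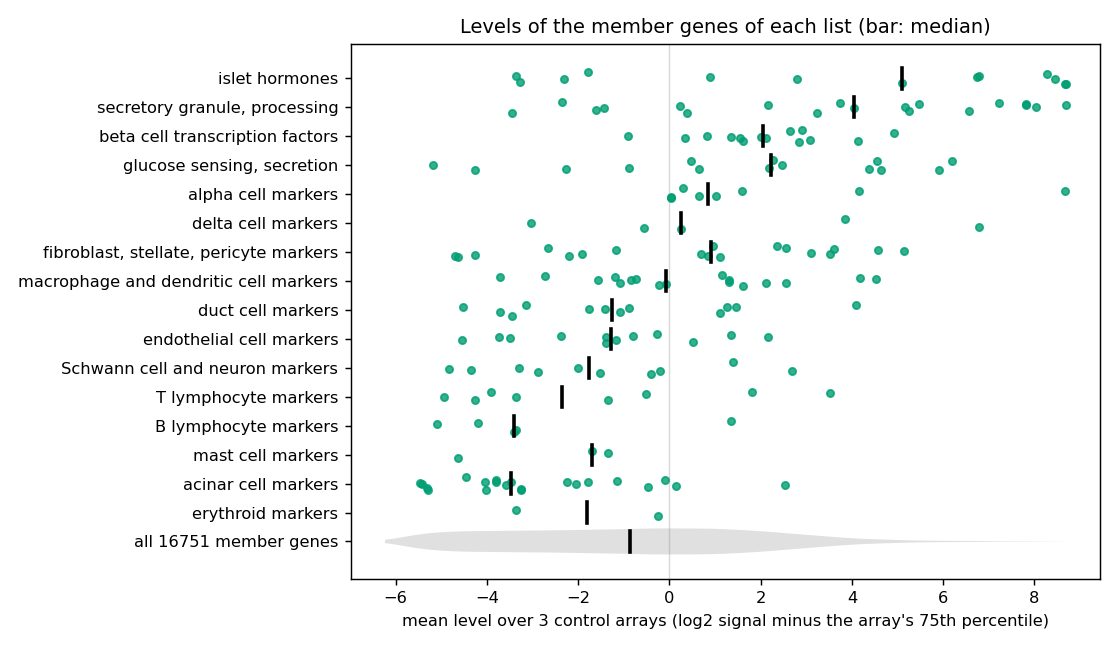
Mean level over the 3 control arrays of each included gene in 16 lists of islet and other cell types (log2 relative to the array's 75th percentile), as points with a black bar at the median, above the spread of all 16751 genes. The hormone and granule lists lie highest at medians of 5.10 and 4.05, and the acinar and B lymphocyte lists lie lowest at −3.47 and −3.41.

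Interferon-stimulated genes were bright in these untreated cells. All 14 on the array were included, with a median level of 2.97, and 5 ranked within the first 1000 of 29946 included probes. The immunity-related GTPases Igtp (6.10, 6.23, 6.15) and Iigp1 (6.10, 6.15, 6.06) ranked 259 and 280. The guanylate-binding proteins Gbp3 and Gbp2 had 5.59, 5.63 and 6.03, and 5.07, 5.66 and 5.55. The list was lowest in replicate 1 for 13 of 14 genes and highest in replicate 2 for 12 of 14, where 32.7% and 30.3% of all genes were. The median difference of replicate 1 from the mean of the others was −0.29, beside −0.0097 over all genes. After quantile normalization, 10 of 14 were lowest in replicate 1. Irf7, a regulator of interferon genes, had −1.50, −0.71 and −1.42 (SD 0.43), and the antiviral gene Ifit3 had 3.18, 3.87 and 3.55.

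Genes of the unfolded protein response, which adapts the endoplasmic reticulum to secretory load, were all included (16 of 16, median level 3.95). The chaperones Hspa5 (6.72, 6.63, 6.67) and Hsp90b1 (5.68, 5.67, 5.63) were even. The stress factor Ddit3 had −0.19, 0.95 and 0.00 (SD 0.61) and Trib3 had 3.31, 3.93 and 2.85, both highest in replicate 2. Atf4, their upstream factor, had 5.64, 5.44 and 5.40 on a probe whose partner lay at −0.46.

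Glycolysis and hypoxia genes were all included (21 of 21, median level 2.16), led by Gapdh at 7.04, 6.81 and 6.90 and Eno1 at 5.57, 5.23 and 5.45. Replicate 2 was the lowest in 17 of 21, beside 35.6% of all genes. The lactate exporter Slc16a3 had 0.96, 0.30 and 1.32. Genes that beta cells normally keep low, called disallowed genes, had a median level of −1.54 with all 17 included. Ldha (lactate dehydrogenase A) was the brightest at 4.03, 3.59 and 4.28, though its other probes had −0.86 and −2.33. Cat (catalase) had 2.16, 2.23 and 2.22 on its brightest probe and −4.76 on the other. Slc16a1 (a lactate and pyruvate transporter) had −2.07, −2.32 and −2.06. Which cells carried these transcripts was not tested.

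Inflammatory response genes were dim and uneven. Of 24 genes, 20 were included with a median level of −1.09, and their median SD was 0.61. Cxcl2, Ccl20 and Saa3 were above background on 0 arrays and Tnf on 2. The chemokines Ccl4 (4.07, 4.28, 4.11) and Cxcl10 (3.04, 3.62, 4.26) were the brightest, followed by Nfkbia, an inhibitor and target of NF-kB, at 2.59, 2.87 and 3.76. The cytokine Il6 had −3.97, −3.96 and −1.05 (SD 1.68). The neutrophil attractant Cxcl5 had −5.34, −5.10 and −2.47, and Ccl3 had −2.66, −2.93 and −0.09. The monocyte attractants Ccl2 and Ccl7 had −1.32, −1.18 and 0.88, and −3.66, −3.21 and −1.77. For Il6, Cxcl5, Ccl3, Ccl2 and Ccl7, replicates 1 and 2 lay together and replicate 3 stood above.

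In all, 18 of 20 inflammatory genes were highest in replicate 3, where 38.9% of all genes were, and 8 of 20 were at least 2-fold above both other preparations there, beside 0.681% of all genes. The median difference was 0.97, beside 0.014 over all genes. Not all stood apart to that extent. The adhesion molecule Vcam1 had −2.93, −2.96 and −2.86, only slightly highest in replicate 3. Ccl4 was 1 of the 2 genes highest in replicate 2. Immediate early and heat shock genes were highest in replicate 3 in 13 of 14 cases, beside the same 38.9%. Jun had 1.55, 2.02 and 3.06 (SD 0.78) and the phosphatase Dusp1 had 0.12, 0.04 and 1.11. In the same preparation the mesenchymal markers were highest and most glucose sensing genes lowest, as given above. Of 17 macrophage and dendritic cell markers, 9 were highest in replicate 3 and 8 in replicate 2. Over all genes these shares were 38.9% and 30.3%. The summed signal of these markers was highest in replicate 2. The part of these cells in the result was not tested.

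Cell cycle genes set replicate 1 apart. All 17 were included, with a median level of −0.97 and a median SD of 0.55. All 17 were highest in replicate 1, beside 30.9% of all genes, and 6 of 17 were at least 2-fold above both other preparations, beside 0.46% of all genes. Mki67, a nuclear protein of cycling cells, had 0.55, −0.81 and −0.67. The mitotic kinase Cdk1 had 0.05, −1.16 and −1.18, and Top2a (topoisomerase II alpha) had −0.72, −1.94 and −2.04. The checkpoint kinase Bub1 had −1.87, −3.12 and −3.20 (SD 0.75). The replication proteins Pcna (2.47, 2.04, 1.98) and Mcm7 (1.27, 0.86, 0.94) were less than 2-fold above the other preparations. Which cells carried them was not measured.

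**Figure D3:**
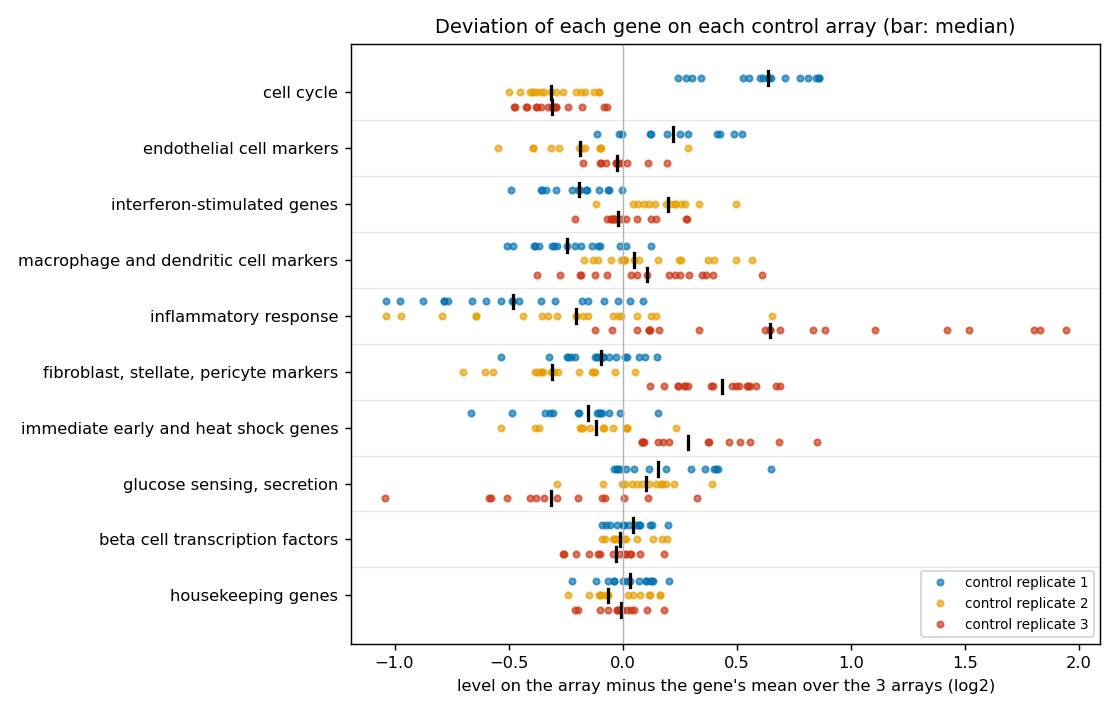
Level of each included gene on each control array minus its mean over the 3 arrays (log2), for 10 gene lists, with points coloured by replicate and a black bar at the median. All 17 cell cycle genes are highest in replicate 1, all 18 mesenchymal markers are highest in replicate 3, and 11 of 14 glucose sensing genes are lowest in replicate 3.

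At the top of the ranking, 53 of the 100 brightest probes had a gene symbol. Beside hormones and granule proteins, the 30 brightest named genes held Rn28s1 (28S ribosomal RNA), the ribosomal protein gene Rpl10, Tpt1, Ubb and H2-K1, a class I antigen presentation gene. Among 85 ribosomal protein genes, 65 ranked within the first 1000 of 29946 included probes. Their median level was 5.49 and their median SD was 0.10. Housekeeping genes had a median level of 4.90 and a median SD of 0.11. B2m, the light chain of class I antigen presentation, had 7.04, 7.37 and 7.36.

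Several others of the 30 rested on probes that disagreed. Elk1, a transcription factor, ranked 8 at 8.15 on 1 probe and lay at −5.90 on its other probe. Ttc38 had 8.05 on its brightest probe and −3.43 on its dimmest. Glrx2 (glutaredoxin 2) had 8.16 and, on other probes, 0.68 and −1.40. Slc10a1, the bile acid transporter of hepatocytes, had 7.48, and its second probe lay at −5.74 and was above background on 2 arrays. The remaining genes of the 30 were Exosc2 (8.34), Medag, Ndor1, Synrg, Milr1, Kctd14, Fam177a2, Coa8, Med16, Pbld1, Fjx1, Tgtp2 and Pigr (7.39). Of the 30, 20 had more than 1 probe, and for 12 another included probe was at least 5 lower. Over 4255 genes with several included probes, the median gap between the brightest and dimmest was 2.21 and the largest was 14.0. A high rank from 1 probe is therefore a statement about that probe.

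**Figure D4:**
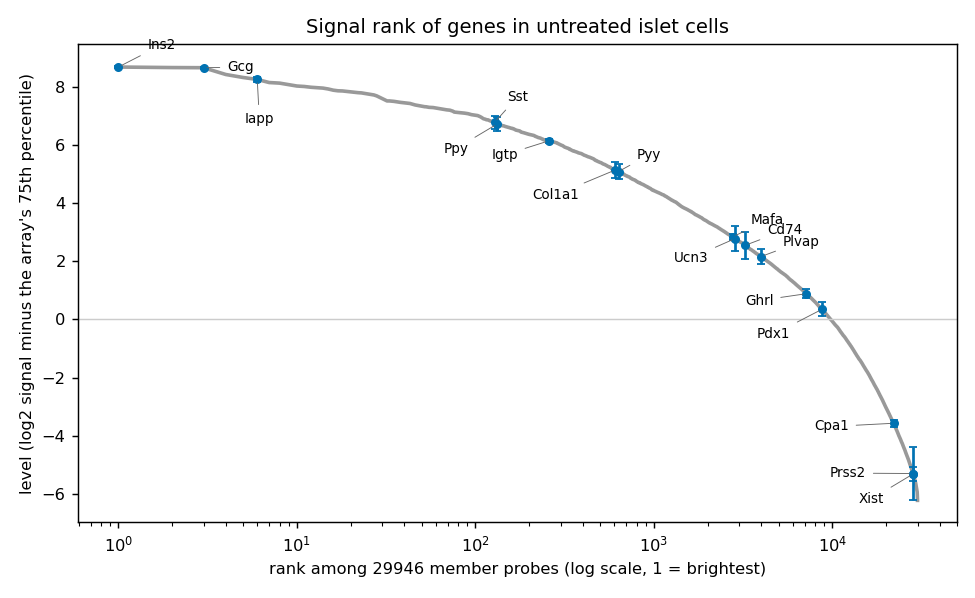
Mean level of each gene (log2 relative to the array's 75th percentile) against its rank among 29946 included probes on a log axis, with 17 genes marked and bars for the SD over 3 arrays. Ins2, Gcg and Iapp lie at the top end of the curve, Pdx1 lies at rank 8738, and Xist lies near its lower end.

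The 3 preparations were close over most genes. The median SD was 0.13 and the 90th percentile was 0.36. An SD of at least 0.5 was found for 710 genes (4.24%) and of at least 1 for 69 (0.412%). Between replicates 1 and 2, 199 genes differed at least 2-fold (1.19%), between 1 and 3 364 (2.17%), and between 2 and 3 311 (1.86%). Across genes, which are not independent replicates, r lay between 0.992 and 0.994. In 4 equal groups of genes from the brightest to the dimmest, the median SD was 0.096, 0.12, 0.15 and 0.19. For 308 included probes printed 10 times on each array, the median SD between arrays was 0.13 and the median SD between spots of 1 array lay between 0.053 and 0.058. For 209 of these probes the SD between arrays was above the spot SD of every array.

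**Figure D5:**
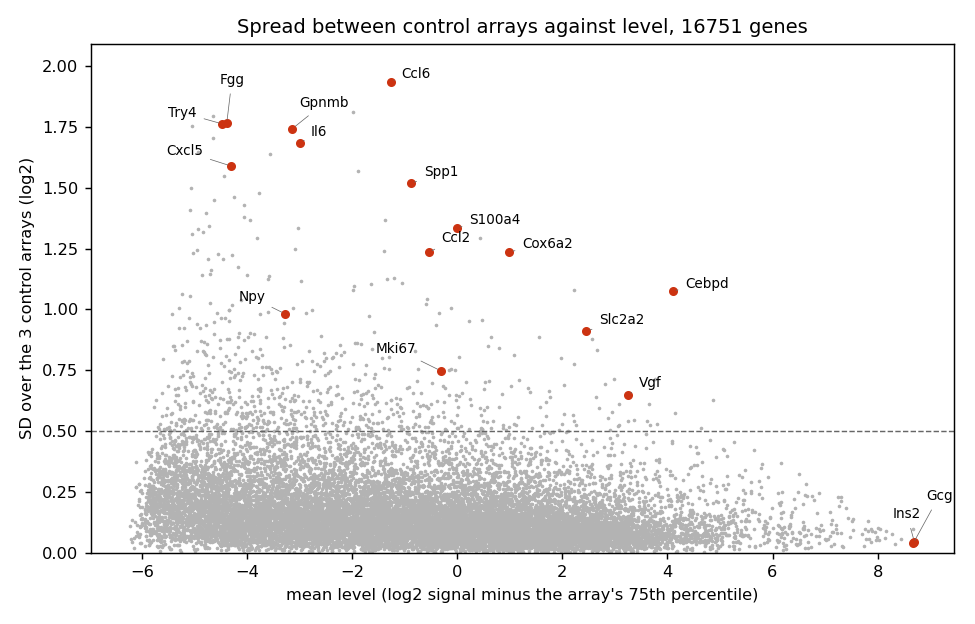
SD over the 3 control preparations (log2) against the mean level for each gene, with selected genes in red and a dashed line at an SD of 0.5. Ccl6 has the largest SD at 1.94, Ins2 and Gcg lie at the bright end with small SDs, and most genes lie near the median SD of 0.13.

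Genes at least 2-fold above both other preparations numbered 77 in replicate 1 (0.46% of 16751), 34 in replicate 2 (0.203%) and 114 in replicate 3 (0.681%). Those at least 2-fold below numbered 12 (0.0716%), 13 (0.0776%) and 32 (0.191%). Most of the high sets were dim, with median levels of −3.87, −4.20 and −3.32 by replicate. The brightest value reached the 75th percentile of its array for 31 of 114 genes in replicate 3 and for 6 of 77 and 3 of 34 in replicates 1 and 2.

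Among the 25 genes with the largest SD, 14 stood apart by being high in replicate 3, 6 in replicate 1 and 4 in replicate 2, and 1 (Spsb4) by being low in replicate 2. Ccl6, a chemokine of myeloid cells, had −1.94, −2.78 and 0.91 (SD 1.94). Gpnmb, a glycoprotein of macrophages and other cells, had −4.07, −4.21 and −1.13, and S100a4, a calcium-binding protein of mesenchymal and myeloid cells, had −0.50, −1.04 and 1.49. Fgg, the gamma chain of fibrinogen, had −5.70, −5.09 and −2.38, and Gem, a small GTPase, had −1.90, −2.41 and 0.17. These stood high in replicate 3, as did Il6, Cxcl5, Ccl3, Spp1, Prss35, Hcrtr1, Spdye4a, Ddit4l and Cypt2. Second included probes of Gem and S100a4 were also highest in replicate 3, but that of Hcrtr1 differed little, with −5.10, −5.01 and −4.78. Second probes of Spdye4a and Cypt2 were above background on 0 arrays. The trypsinogens Try4 (−5.96, −2.53, −4.93) and Try5 (−4.79, −2.07, −4.45), near-identical relatives of Prss2 whose probes may share target, were high in replicate 2, with Slc35f4 and Serpinc1 (−4.98, −2.42, −4.80). Khdc1c, Scgb1c1, Olfr314, Cend1, Emx1 and Spag6 were high in replicate 1, all at mean levels below −3. A second probe of Spag6, above background on 1 array, was lowest in replicate 1, with −7.69, −5.33 and −6.21.

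Some brighter genes, chosen after their values were seen, also separated replicate 3. Cebpd, a factor induced by inflammatory cytokines, had 3.38, 3.58 and 5.33, and Lgals3 (galectin 3) had 2.14, 1.99 and 3.58. In the opposite direction Cox6a2, a cytochrome oxidase subunit, had 1.62, 1.79 and −0.43, and Plut, a transcript next to Pdx1, had 2.35, 1.73 and 0.60. Stmn1, a microtubule protein of dividing cells, was high in replicate 1 with 2.89, 1.59 and 1.44.

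Among genes with a mean level above 0, the 10 smallest SDs lay between 0.0015 and 0.0048, below the spread of repeated spots. They belonged to Arhgdia (4.16), Degs1 (4.69), Ehd1, Fdx1, Tango2, Brd3, Esr2, Cops2, Nfatc2 and Wdr13. With 3 arrays such small values are not evidence of special evenness. Among the 500 brightest probes, 7 had an SD of at least 0.5 and all 7 had no symbol. All were highest in replicate 1 and lowest in replicate 2. The Ensembl transcript ENSMUST00000099050 had 8.29, 7.14 and 7.97, and ENSMUST00000099683 had 8.29, 6.96 and 7.77.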

How the data were processed

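The 3 control samples were each measured as Cy3-labelled RNA on a 1-colour Agilent array. The deposited processed signal is an intensity, background-subtracted within the array by Agilent Feature Extraction 11.0.1.1, per the file headers. Other deposited values are spot flags (0 or 1, per the file headers). The authors' processed values are on a log2 scale with a median of 7.92 and cover 31766 probes; they served as an alternative.

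Levels were log2 processed signals minus the 75th percentile over non-control spots of the array, spots of a probe averaged, computed with Python 3.11.15, pandas 2.3.3 and numpy 2.4.6. Figures used matplotlib 3.10.9. Probes were named through RefSeq, which gave 27234 of them a symbol and left 12195 unnamed. The level calculation was tested on simulated data. No significance test was run, because 1 group was described. SDs measure the spread between these 3 arrays. With 1 array per preparation, differences of preparation, labelling and hybridisation cannot be told apart in them.

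The members and the 25 lists (352 genes, 315 included) were chosen with earlier results of these data known. Named genes were those with an established symbol: the 30 brightest, the 25 with the largest SD, the 10 with the smallest SD, the 4 brightest and 2 least even of each list, and all hormones, beta cell factors and sex-linked genes; other genes named are list members given as examples or are said to be chosen after their values were seen. A few of these genes are not reported here. Alternatives were median centring, quantile normalization, normexp background correction (limma 3.58.1 in R 4.3.3, data.table version 1.17.8, offset 50) and the authors' values. Further ones were other filters, the median over probes, leaving out uneven or outlier spots, and leaving out each array. Normexp used median spot signals, since mean spot signals are not in the columns used. The 3 control arrays share 1 scan time, so scan could not be examined.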

Additional observations from a re-analysis of the deposited data

How the results depend on the processing

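No paired analysis was possible because only the control group was described and no comparison was made. The direction of the 5 list differences held under every setting: 0.82 to 1.09 for inflammatory genes, 0.50 to 0.70 for mesenchymal markers and −0.53 to −0.32 for glucose sensing genes in replicate 3, and 0.79 to 0.98 for cell cycle genes and −0.44 to −0.17 for interferon-stimulated genes in replicate 1. The 30 brightest genes shared 28 to 30 with the other settings but 16 when a gene was the median over its probes. The number of genes with an SD of at least 0.5 (710) was 214 after normexp correction (the cause was not tested), 1311 with probes above background on at least 1 array, 2001 with no filter, and 562 to 916 when 1 array was left out. Included list genes numbered 328 and 347 under those filters. Levels of 27 hormone and transcription factor genes were also taken relative to the median gene. Of these, 16 moved by at least their SD after normexp correction, 25 with the median over probes and 5 with the authors' values. Under the remaining settings 0 moved. With the median over probes the median gene used as reference also changed. Genes with 1 probe therefore moved too, such as Ins1 from 9.30 to 9.74. Of the 25 genes with the largest SD, 8 remained among the 25 after normexp correction (Ccl3, Ccl6, Gem, Gpnmb, Il6, S100a4, Spp1 and Try4) and 0 without the filter. The dimmest genes had the largest SDs and limit what can be read from low levels.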
